A study of Mus musculus with 11 samples.

Results

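The homeostatic lymphoid chemokines and their receptors were read in the outer wall of the mouse abdominal aorta, over 3 ligands (Cxcl13, Ccl19 and Cxcl12) and 3 receptors (Cxcr5, Ccr7 and Cxcr4). Members were all probe sets of the arrays whose only gene symbol in the platform annotation was one of these 6 names. That rule gave 7 of 22626 probe sets, and they covered 5 of 12393 genes, with 2 probe sets each for Cxcl13 and Cxcl12 and 1 each for Cxcr5, Ccr7 and Cxcr4. Ccl19 had 1 probe set, which the annotation assigns to Ccl19 together with its pseudogene Ccl19-ps1 and further loci, so Ccl19 was not analysed here. All samples were laser-microdissected adventitia of male mice aged 78 weeks. The ATLO group (4 arrays) came from B6.129P2-Apoe<tm1Unc>/J mice, which lack apolipoprotein E in every tissue, and was cut inside the lesion area where the adventitia held artery tertiary lymphoid organs. The outside-lesion group (4 arrays) was of the same strain, age and sex but was cut away from the lesions, although the series' design text speaks of mice without lesions. The wild-type group (3 arrays) came from C57BL mice, and its titles carry the letters PNS, which no label explains. All mice ate standard chow. Each Apoe-deficient sample pooled 200 sections of 10 micrometres, from aortas excised with their para-aortic lymph nodes and surrounding fat. The labels do not state that the arrays of a group stem from different mice, and the p-values therefore cover array-to-array spread alone, some of which may be technical.

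Homeostatic chemokines are made steadily by stromal cells of lymphoid organs and place lymphocytes within them, whereas inflammatory chemokines are switched on at sites of injury. CXCL13 draws B cells and follicular helper T cells that carry CXCR5 into B cell follicles. CCL19 and its relative CCL21 draw naive T cells and mature dendritic cells that carry CCR7 into the T cell zone. CXCL12 is made by many fibroblasts and holds CXCR4-bearing leukocytes and plasma cells in bone marrow and tissue. The same ligands mark tertiary lymphoid organs, the lymphoid aggregates that form in chronically inflamed tissue.

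Promoters are shown for the members that were higher together in ATLO and have an entry in RefSeq's table (GRCm38.p6), each as 300 bases on the gene's own strand, from 250 before to 50 after the transcript start. Cxcl13 lies at chr5:95956689-95956988 (plus strand), Cxcl12 at chr6:117168285-117168584 (plus strand) and Cxcr4 at chr1:128592250-128592549 (minus strand). Capitals mark the TATA sequence TATAAA, searched on both strands, where matches on opposite strands can overlap.
Cxcl13: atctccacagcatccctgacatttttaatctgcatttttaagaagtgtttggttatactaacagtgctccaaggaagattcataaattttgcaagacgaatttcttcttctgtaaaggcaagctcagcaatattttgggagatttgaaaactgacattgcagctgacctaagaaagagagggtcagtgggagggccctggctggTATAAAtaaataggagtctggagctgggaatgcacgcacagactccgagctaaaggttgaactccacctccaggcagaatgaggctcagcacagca
Cxcl12: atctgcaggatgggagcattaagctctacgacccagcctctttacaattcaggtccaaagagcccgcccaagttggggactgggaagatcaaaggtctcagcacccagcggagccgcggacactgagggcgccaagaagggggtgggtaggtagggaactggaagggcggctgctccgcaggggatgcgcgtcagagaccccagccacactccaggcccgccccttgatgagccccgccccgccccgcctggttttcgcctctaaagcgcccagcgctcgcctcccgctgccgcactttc
Cxcr4: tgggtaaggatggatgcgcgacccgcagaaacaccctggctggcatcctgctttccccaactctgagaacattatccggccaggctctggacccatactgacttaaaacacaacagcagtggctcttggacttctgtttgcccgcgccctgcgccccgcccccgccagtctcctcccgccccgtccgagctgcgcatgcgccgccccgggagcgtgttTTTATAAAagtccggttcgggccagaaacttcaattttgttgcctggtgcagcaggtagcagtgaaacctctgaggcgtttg
TATAAA began 46 bases before the start of Cxcl13 and 30 before that of Cxcr4, and it was in 13.6% of the 32851 promoters of this length. These letters were not in the Cxcl12 window, and a match is a description, not a site.

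The checks of the tissue came out as follows. Apoe read 134 ± 31.1 (SD, n = 4) in ATLO, 110.0 ± 67.0 (SD, n = 4) outside the lesion and 12420 ± 651 (SD, n = 3) in wild type. All 9 fibroblast markers were measured, with summed signals of 54698 to 107170 in ATLO, 30173 to 77962 outside the lesion and 51957 to 59795 in wild type. Adipocyte markers (5 of 6 measured) summed to 24062 to 69838 in ATLO, 85449 to 158250 outside the lesion and 52748 to 62344 in wild type. The 9 measured of 10 B cell markers summed to 7044 to 21385 in ATLO, 1173 to 2647 outside the lesion and 1120 to 6757 in wild type, where replicate 2 held the high value and the other arrays stood at 1434 and 1120. The 10 measured of 12 T cell markers summed to 2980 to 6214 in ATLO, 830 to 1321 outside the lesion and 1273 to 1561 in wild type. Among them Cd4 and Trat1 did not exceed the floor on any outside-lesion or wild-type array. In ATLO Trat1 was at the floor on 3 of 4 arrays (highest value 36.1) and Cd4 on 1. ATLO samples were dissected for their lymphoid aggregates, and in bulk tissue fewer cells of a type and less RNA per cell cannot be told apart.

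All 7 member probe sets were higher in ATLO than outside the lesion by limma at a Benjamini-Hochberg adjusted p under 0.05, where 17.9% of the 14988 probe sets tested were higher, 13.9% lower and 31.9% called in either direction. All 7 also had every ATLO array above every outside-lesion array, which held for 17.2% of probe sets. The 7 log2 changes lay between 0.86 and 2.76 with a median of 1.92, beside a median of 0.10 over all probe sets. Ccr7 and Cxcr5 entered the test only through their ATLO arrays, which by itself requires a difference. With no filter on dim probe sets, 7 of 7 were again called. Against wild type all 7 were called higher in ATLO (13.4% of all probe sets, 26.8% in either direction), 6 of them without overlap (17.3%), and with no filter 6 were called. Between outside-lesion and wild-type adventitia 0 of 7 were called in either direction (3.26% of all probe sets, with 1.72% higher and 1.54% lower). An unadjusted limma p under 0.05 was reached by 3, in mixed directions. These were 1 Cxcl13 probe set (log2 change -0.59), Cxcr4 (-0.85) and 1 Cxcl12 probe set (0.41). The share of all probe sets with such a p was not counted. The comparisons share arrays, so they are not independent of each other.

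**Figure D1:**
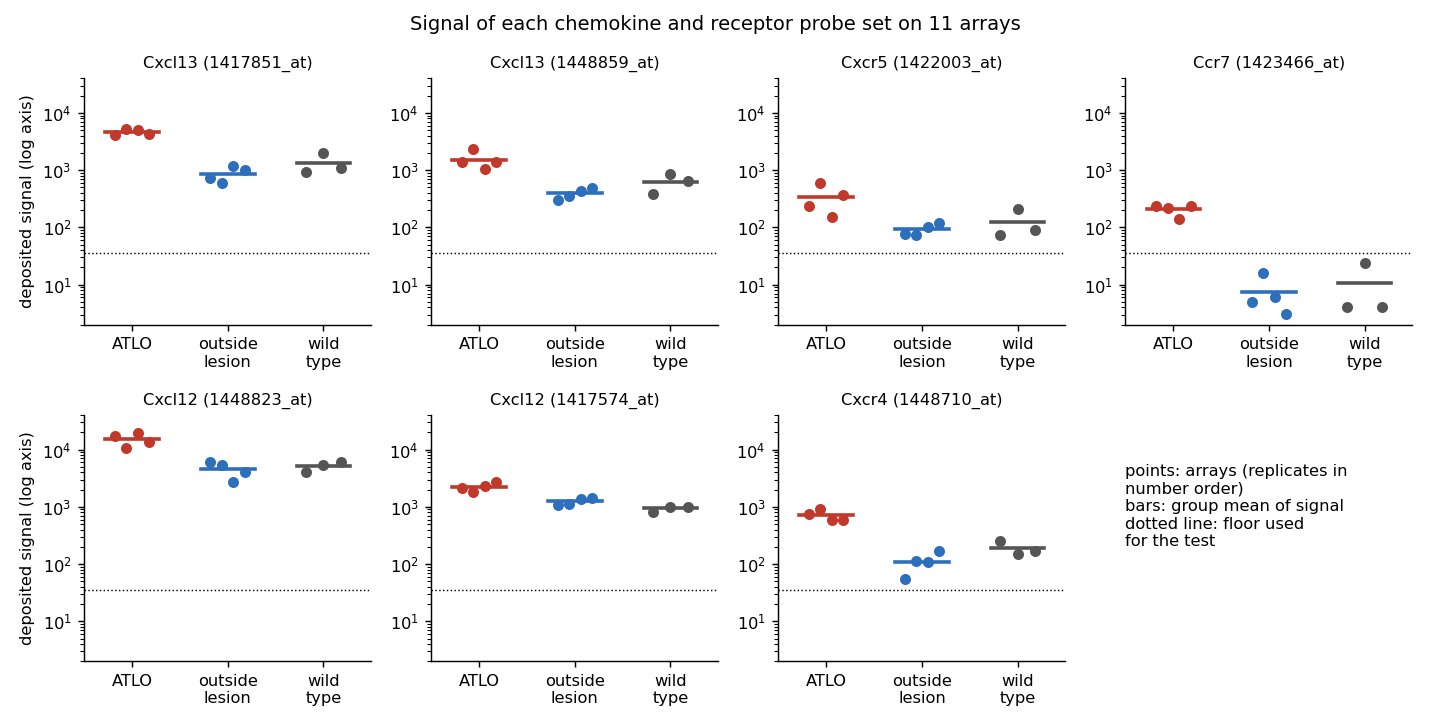
Deposited signal (log axis) of the 7 probe sets on each array of the ATLO, outside-lesion and wild-type groups, with bars at the group mean of the signal and a dotted line at the floor of 35.1 used in the test. ATLO points lie above all outside-lesion points in each panel, and the Ccr7 points of the other groups lie below the floor.

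Cxcl13, the ligand that gathers B cells into follicles, read 4074, 5202, 4987 and 4252 on the 4 ATLO arrays, 718, 590, 1168 and 1004 outside the lesion, and 943, 1992 and 1080 in wild type (the brighter of its probe sets). The ATLO arrays lay within a narrow range, far above both other groups. Its log2 change was 2.46 ± 0.25 (SE) against outside-lesion adventitia (adjusted p = 2.20e-05, limma) and 1.86 ± 0.27 against wild type (adjusted p = 4.35e-04). A dimmer probe set read 1361, 2329, 1050 and 1399 in ATLO, 298, 356, 433 and 488 outside the lesion and 385, 860 and 639 in wild type. It changed in the same direction, by 1.93 ± 0.28 and 1.30 ± 0.30 on the log2 scale (adjusted p = 1.73e-04 and 0.00641 by limma). Follicular dendritic and reticular stroma makes CXCL13 in follicles. Of 9 tested markers listed for it, 5 were called higher and 0 lower in ATLO than outside the lesion (beside 19.8% and 14.9% of all genes). Those 5 were Clu, Pdpn, Vcam1, Icam1 and Tnfsf11. Pdpn read 2116 in ATLO, 929 outside the lesion and 1882 in wild type. It was not called against wild type (log2 change 0.19, limma adjusted p = 0.5). Outside the lesion it was called lower than in wild type (-0.995, limma adjusted p = 0.0231). Cr2 (limma adjusted p = 0.0908), Mfge8 (0.13), Il7 and Prnp were not called, and Prnp stood at a log2 change of -0.36. Fdcsp was not measured. Madcam1, which did not pass the filter, read 40.3 in ATLO and 72.9 outside the lesion. Against wild type 4 of 9 were higher (13.6%). Summed signals of the list were 22616 to 30329 in ATLO, 13810 to 18961 outside the lesion and 17212 to 19407 in wild type. The part of these cells in the Cxcl13 difference was not tested. On both probe sets the wild-type array with the highest Cxcl13 was replicate 2, the one with the highest B cell marker sum. Outside-lesion levels were nominally below wild type by both probe sets, and neither difference passed the test (log2 change -0.59, 95% confidence interval -1.17 to -0.01, and -0.62, -1.26 to 0.02).

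Cxcr5, the CXCL13 receptor of B cells and follicular helper T cells, read 238, 605, 150.2 and 373 in ATLO, 77.1, 74.0, 102 and 121 outside the lesion, and 74.1, 209 and 91.1 in wild type. The lowest ATLO array stood close to the highest outside-lesion array, and wild-type replicate 2 lay above ATLO replicate 3, so that 11 of 12 ATLO and wild-type pairs of arrays favoured ATLO. The log2 change was 1.71 ± 0.42 against outside-lesion adventitia (adjusted p = 0.00696, limma) and 1.42 ± 0.45 against wild type (adjusted p = 0.0334). Replicate spread was the widest of the 5 genes in ATLO, with an SD of 0.86 on the log2 scale where the other members had 0.17 to 0.48. In ATLO the order of Cxcr5 over the arrays was that of the B cell marker sum (9608, 21385, 7044 and 12784 for replicates 1 to 4) and the reverse of the actin 3' to 5' signal ratio, which rises as RNA degrades (4.99, 1.71, 8.14 and 3.58). Outside the lesion that ratio was 6.22 to 11.99, and in wild type 4.19 to 5.41. With the actin ratio as a covariate Cxcr5 no longer passed against outside-lesion adventitia (log2 change 0.85, adjusted p = 0.18), while the other 6 probe sets stayed called at log2 changes of 0.96 to 2.44. Against wild type the Cxcr5 call was lost without ATLO replicate 2 or 4 (adjusted p = 0.0903 and 0.0802), without wild-type replicate 1 or 3 (adjusted p = 0.137 and 0.111), with only those 2 groups in the fit (adjusted p = 0.0514) and with no filter (adjusted p = 0.0931).

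Ccr7, the receptor that takes naive T cells and mature dendritic cells towards CCL19 and CCL21, read 240, 221, 140 and 235 in ATLO. Its signals were 5.0, 16.0, 6.1 and 3.1 outside the lesion and 4.0, 23.6 and 4.1 in wild type. All 7 of the outside-lesion and wild-type arrays lay below the floor, so only a bound can be given, and ATLO was at least 5.82-fold higher than either group. The limma adjusted p was 4.69e-05 against outside-lesion and 2.01e-04 against wild type. Flooring set the SD of both other groups to 0 on the log2 scale, so these p-values do not measure their spread. Dendritic cell markers, of cells that also carry CCR7, summed to 4239 to 5203 in ATLO, 1929 to 2282 outside the lesion and 1586 to 1986 in wild type, and the part of cell numbers in the Ccr7 difference was not tested. No order can be read between outside-lesion and wild-type adventitia. With the floor at the 10th percentile its log2 change against outside-lesion adventitia was 4.04, and with the floor at the 30th percentile it was 1.64, both called.

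Cxcl12, the ligand of CXCR4 made by fibroblast-like stromal cells, read 17476, 10853, 19288 and 13705 in ATLO, 6163, 5444, 2736 and 4119 outside the lesion, and 4113, 5302 and 6078 in wild type (the brighter probe set). Outside-lesion and wild-type arrays overlapped, and all ATLO arrays were higher than both. The log2 change was 1.76 ± 0.26 against outside-lesion adventitia (adjusted p = 2.07e-04, limma) and 1.55 ± 0.28 against wild type (adjusted p = 0.00166). In ATLO its order over arrays followed the fibroblast marker sum (101650, 54698, 107170 and 92216) and the actin ratio, opposite to Cxcr5. The dimmer probe set, whose ATLO order followed neither, read 2177, 1832, 2328 and 2719 in ATLO, 1085, 1114, 1360 and 1429 outside the lesion, and 813, 994 and 1003 in wild type. Its change was 0.86 ± 0.16 against outside-lesion adventitia (adjusted p = 0.00101) and 1.27 ± 0.17 against wild type (adjusted p = 2.81e-04), both by limma. The difference between the 2 probe sets in the first comparison, 0.91 on the log2 scale, did not pass a two-sided exact permutation test (p = 0.0571, adjusted p = 0.143 over 4 pairs). The sources used here do not say which Cxcl12 transcripts each probe set reads. Outside-lesion arrays were all above wild type by the dimmer probe set (8.15% of probe sets), at a log2 change of 0.41 that did not pass (adjusted p = 0.176, limma), while the brighter one stood at -0.21.

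Cxcr4, the CXCL12 receptor of most leukocytes, read 749, 934, 584 and 582 in ATLO, 56.0, 112, 108 and 167 outside the lesion, and 257, 150.4 and 167 in wild type. ATLO arrays were above all others, and on the log2 scale the outside-lesion arrays spread more widely than either other group. Its log2 change of 2.76 ± 0.31 against outside-lesion adventitia (adjusted p = 3.54e-05, limma) was larger than that of Cxcl13, Cxcr5 or Cxcl12, while for Ccr7 only a bound is known, and 0.654% of all tested probe sets rose more. Against wild type it was 1.91 ± 0.33 (adjusted p = 0.00136). Outside the lesion it was nominally below wild type, at -0.85 with a 95% confidence interval of -1.56 to -0.14, and the adjusted p was 0.159. With the brighter ligand probe sets, no difference between receptor and ligand changes passed the two-sided exact permutation test, either for Cxcr4 minus Cxcl12 (difference of log2 changes 0.99, p = 0.143) or for Cxcr5 minus Cxcl13 (-0.74, p = 0.143). With the dimmer Cxcl12 probe set the Cxcr4 difference was 1.90 with no overlap between the groups, at the smallest exact p these arrays allow (0.0286, adjusted p = 0.114 over 4 pairs). With the dimmer Cxcl13 probe set the Cxcr5 difference was -0.22 (exact p = 0.429). These pairs and the pairs of probe sets of 1 gene were chosen after the values were seen, and none passed against wild type (exact p between 0.114 and 0.8).

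**Figure D2:**
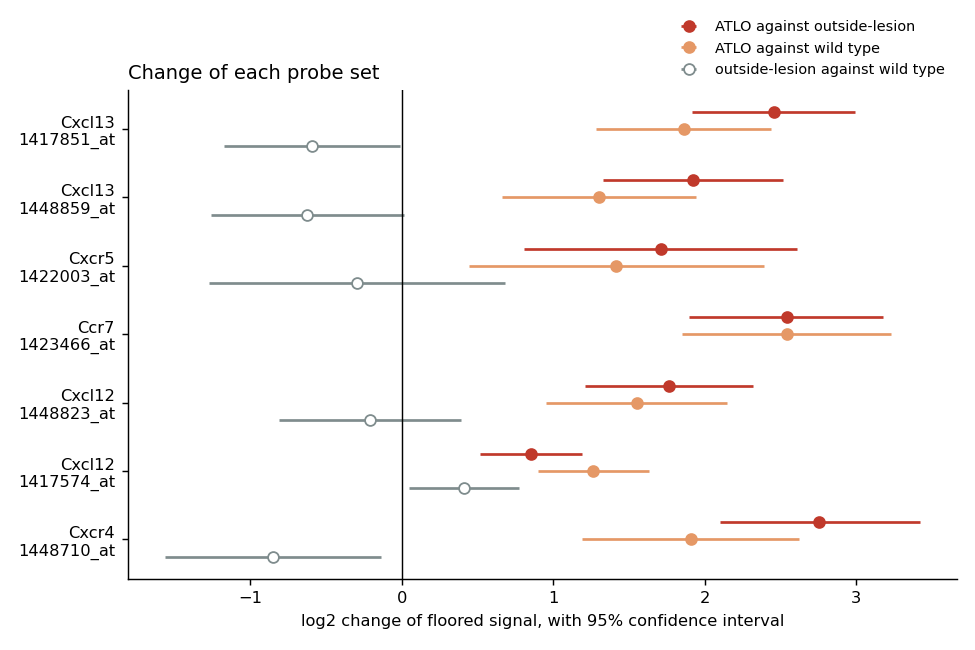
Log2 change of the floored signal with its 95% confidence interval for each probe set in the 3 comparisons. Filled points passed an adjusted p of 0.05, and the outside-lesion against wild-type points, all open, lie between -0.85 and 0.41, with Ccr7 left out because both groups lay at the floor.

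**Figure D3:**
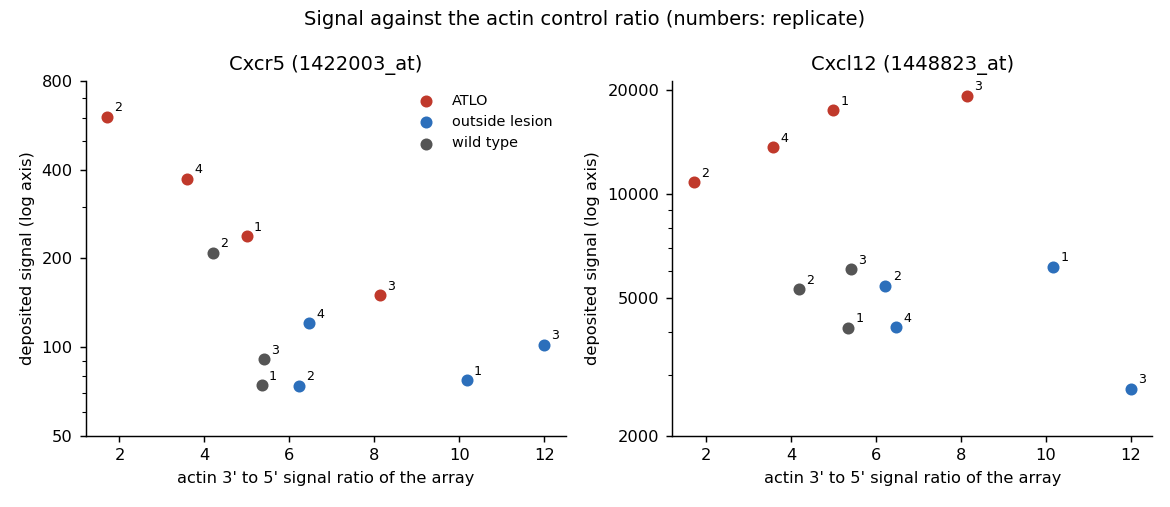
Signal (log axis) of Cxcr5 and of the brighter Cxcl12 probe set against the actin 3' to 5' signal ratio of the same array, coloured by group and numbered by replicate. Among the 4 ATLO arrays Cxcr5 is lowest (150.2) and Cxcl12 highest (19288) on replicate 3, which has the highest ratio, and replicate 2 has the opposite extremes.

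Wild-type samples were extracted with another kit and amplified for 24 h instead of 68 h, so genotype, dissection and handling cannot be told apart in any comparison with wild type. The kit and amplification time were the same for ATLO and outside-lesion adventitia, but their actin 3' to 5' ratios differed (1.71 to 8.14 and 6.22 to 11.99). With that ratio as a covariate 2552 probe sets were called between these 2 groups, against 4777 without it. The part of RNA quality in this comparison was not tested further.

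To set each member against a cell type, its log2 signal was taken relative to the mean log2 signal of a marker list on the same array. Groups were compared by a two-sided exact permutation test adjusted over the 5 genes. Cxcl13 was set against fibroblast markers and not against those of follicular dendritic and reticular stroma. Each gene was represented by its brighter probe set, and for both ligands the result depended on that choice. Fibroblast markers did not change alike in ATLO against outside-lesion adventitia, from -0.05 for Pi16 to 2.75 for Lum on the log2 scale. By limma 6 of 9 were called higher and 0 lower. Lum (-1.20) and Pdgfra (-1.28) were also called lower outside the lesion than in wild type. Relative to 9 fibroblast markers, which themselves were 1.12 higher on the log2 scale in ATLO than outside the lesion, the brighter Cxcl13 probe set stood at -0.26 ± 0.51 in ATLO and -1.59 ± 0.91 outside the lesion (SD, n = 4 each; exact adjusted p = 0.0357). These groups nearly met, at -0.564 on ATLO replicate 3 and -0.574 on outside-lesion replicate 3. The dimmer Cxcl13 probe set differed by 0.81, with overlapping groups and no call (exact adjusted p = 0.286). The brighter Cxcl12 probe set stood at 1.45 ± 0.20 in ATLO and 0.80 ± 0.25 outside the lesion (exact adjusted p = 0.0357), and against wild type at 0.48 ± 0.08 the difference was 0.96 (exact adjusted p = 0.0476). The dimmer Cxcl12 probe set had the opposite sign against outside-lesion adventitia, at -0.26 (exact adjusted p = 0.543), and differed from wild type by 0.68 (exact adjusted p = 0.0952). Cxcr5 relative to 9 B cell markers was -1.83 ± 0.17 in ATLO, -1.02 ± 0.36 outside the lesion and -0.89 ± 0.59 in wild type (SD), given with no test because only 1 of 4 outside-lesion and 1 of 3 wild-type arrays read Cxcr5 above their own 40th percentile. No difference between Ccr7 and its 10 T cell markers could be measured, since all Ccr7 values outside the lesion were the floor itself and the difference moved with the floor, being 1.87 with the floor at the 10th percentile, 0.68 at the 20th and 0.007 at the 30th. Cxcr4 relative to 8 leukocyte markers differed by 0.58 from outside the lesion (exact adjusted p = 0.0571) and by -0.12 from wild type (exact adjusted p = 0.743). The raw p cannot fall below 0.0286 with these numbers of arrays. For Cxcr4 and the brighter Cxcl13 and Cxcl12 probe sets the outside-lesion against wild-type exact adjusted p-values were 0.357 or more. The adjustment over the 5 genes also counted the p-values of Cxcr5 and Ccr7, so the adjusted values of the other genes depend on them.

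**Figure D4:**
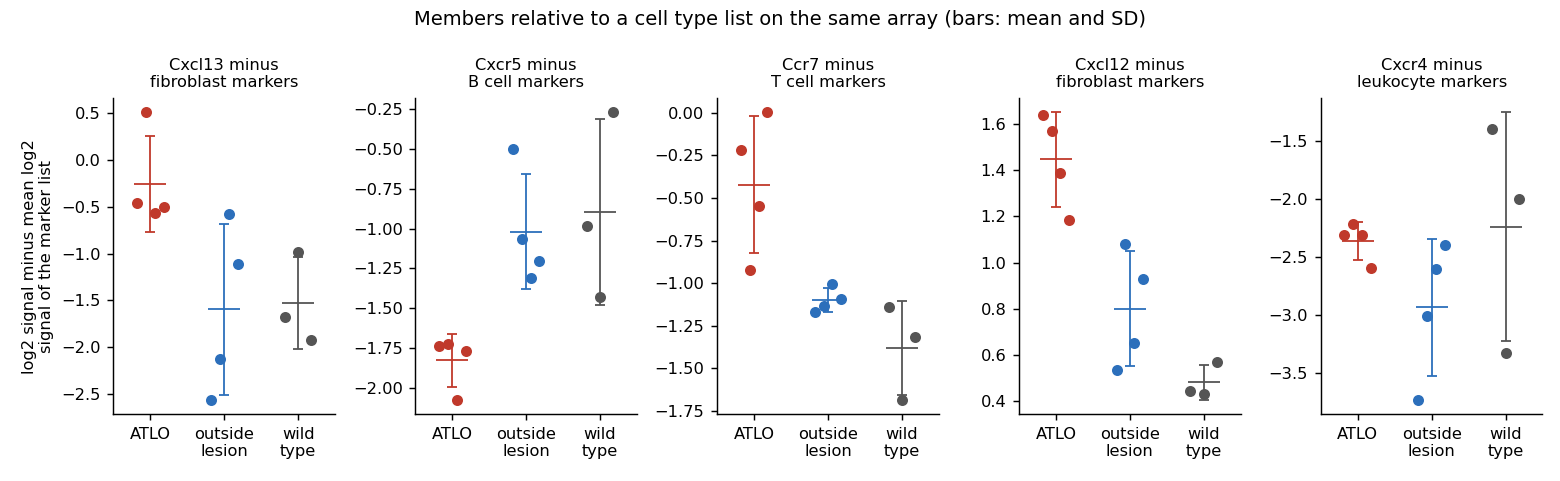
Log2 signal of each gene's brightest probe set minus the mean log2 signal of its marker list, per array, with group mean and SD. ATLO points lie above both other groups for Cxcl12 and, only narrowly above the highest outside-lesion point, for Cxcl13. For Cxcr4 they lie among the other groups. Outside-lesion and wild-type Ccr7 values are set by the floor, and most such Cxcr5 values are below the array's own 40th percentile.

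Further guidance cues and receptors moved with the members. In that list 19 of 30 genes were tested, 12 were higher and 1 lower in ATLO than outside the lesion, beside 19.8% and 14.9% of 9055 genes, with a median log2 change of 1.49 against 0.11 over all genes. Cxcr6, the receptor of tissue-resident lymphocytes for CXCL16, read 495 ± 82.8 in ATLO and 68.3 ± 23.6 outside the lesion (SD, n = 4 each; log2 change 2.91, limma adjusted p = 2.49e-05). Its ligand gene Cxcl16 rose by 1.80 on the log2 scale, and it was singled out after its values were seen because it pairs with Cxcr6. Ccr6, which guides B cells and helper T cells to CCL20, rose by 2.53, Cxcl14, a constitutive epithelial and stromal chemokine, by 2.27, and Ccr9, the receptor for CCL25, by 1.92. The ligand genes Ccl20 and Ccl25 did not pass the filter. Ccl20 read 25.1 in ATLO and 12.5 outside the lesion, at the floor on 3 of 4 and 4 of 4 arrays. Ccl25 read 65.2 in ATLO and 71.1 outside the lesion. S1pr1, the receptor that lets lymphocytes leave lymphoid tissue and that endothelium also carries, was lower (313 ± 31.2 in ATLO and 477 ± 89.5 outside the lesion, limma adjusted p = 0.0147), and endothelial markers fell with it (4 of 7, 0 higher). Against wild type 11 were higher and 2 lower, beside 13.6% and 14.1% of all genes. The 2 lower were Ackr3 (log2 change -1.18, limma adjusted p = 0.0108) and Hsd3b7 (-0.44, adjusted p = 0.0494). S1pr1 was not called against wild type (-0.35, limma adjusted p = 0.161), nor was Ackr3 against outside-lesion adventitia (-0.52, adjusted p = 0.175). Between outside-lesion and wild type 0 of 19 were called, beside 1.42% of all genes higher and 1.69% lower.

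Genes that act behind chemokine receptors were mostly higher as well. Of 32 tested genes of 38, 24 were higher and 1 lower in ATLO than outside the lesion, beside 19.8% and 14.9% of all genes. The median log2 change of the list was 1.32, against 0.11 over all genes. Compared with wild type 21 were higher and 0 lower, where 13.6% of all genes were higher and 14.1% lower. Vav1 read 415 ± 110 in ATLO and 55.1 ± 18.3 outside the lesion (SD, n = 4 each), a log2 change of 2.93. Itgb2, the beta chain of the integrins that arrest leukocytes, rose by 2.84, and the actin regulators Coro1a and Rac2 by 2.75 and 2.55. All 8 leukocyte markers, 2 of which are Coro1a and Rac2, rose too, with summed signals of 30429 to 38427 in ATLO and 6184 to 8460 outside the lesion, and the part of leukocyte number in the signalling list was not tested. Rgs2, a regulator that shortens G protein signals, was the gene that fell (1720 ± 277 in ATLO and 4083 ± 1740 outside the lesion, limma adjusted p = 0.0177). Rgs19 was the 1 gene of the list called higher outside the lesion than in wild type (log2 change 0.97, limma adjusted p = 0.0363).

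Lymphotoxin and alternative NF-kappaB signals induce the homeostatic ligands in stroma of lymphoid organs. The list set for them also holds lymphocyte genes, such as Il7r and Tnfrsf13c, and further genes, such as Tnf and Rela. Of its 24 genes 19 were tested. In ATLO 10 were higher and 0 lower than outside the lesion (median log2 change 1.02), beside 19.8% and 14.9% of all genes. Compared with wild type 13 were higher and 0 lower, beside 13.6% and 14.1%. Lymphocytes express Ltb, Il7r and Tnfrsf13c, and 8 of 9 B cell, 7 of 8 T cell and 8 of 8 leukocyte markers were also higher in ATLO than outside the lesion, whose part in the list was not tested. Nfkb2, which encodes the p100 precursor of p52, read 525 ± 81.8 in ATLO and 114 ± 87.6 outside the lesion (SD, n = 4 each; log2 change 2.48, limma adjusted p = 0.00187). Tnfrsf13c, the BAFF receptor of B cells, changed by 2.45, and Ltb and Il7r had the largest log2 changes of the list, 3.18 and 3.27. Ltbr and Relb were singled out after their values were seen, as the receptor of the Ltb product and the partner of p52. Ltbr stood at a log2 change of -0.17 (limma adjusted p = 0.495), and Relb at 0.87 against outside-lesion adventitia (adjusted p = 0.151) and 1.498 against wild type (adjusted p = 0.0318). Map3k14, also singled out after its values were seen, stood at 0.06 against outside-lesion adventitia (limma adjusted p = 0.89). Tnfsf13b, which encodes BAFF, was the gene of the list called lower outside the lesion than in wild type (log2 change -0.74, limma adjusted p = 0.0356).

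**Figure D5:**
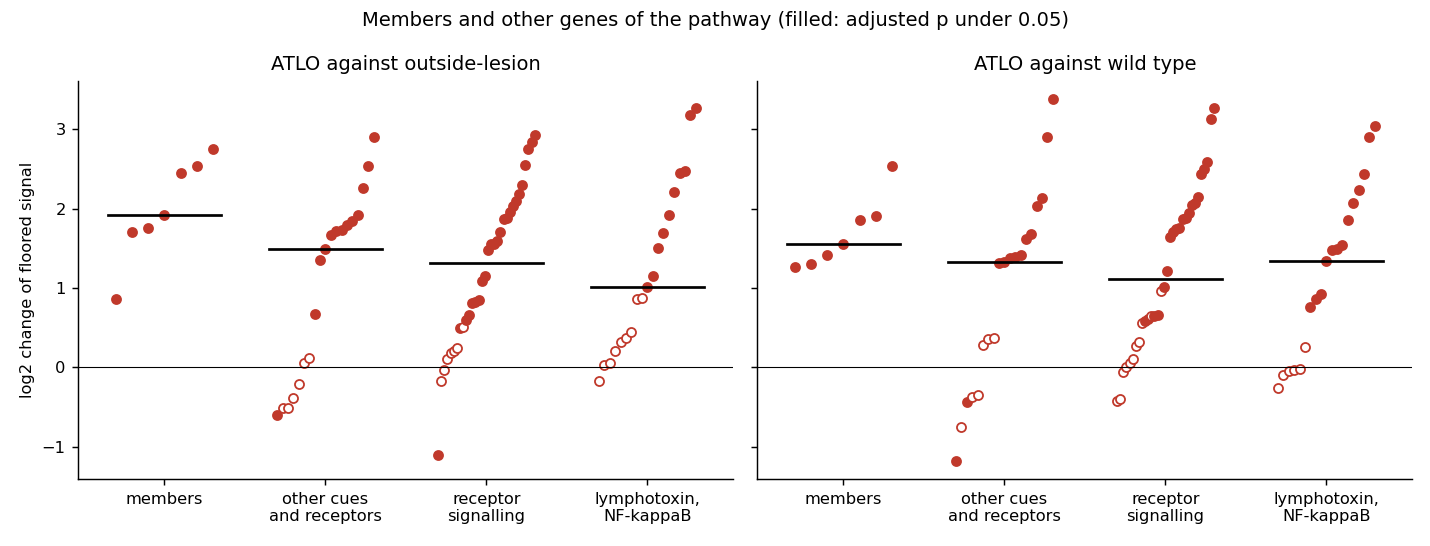
Log2 change of the 7 member probe sets and of the tested genes of each pathway list in ATLO against outside-lesion (left) and against wild type (right), with a line at each median and filled points for adjusted p under 0.05. Member medians of 1.92 and 1.55 stand beside list medians of 1.49, 1.32 and 1.02 on the left.

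By Pearson correlation of log2 signal over the 11 arrays, among 9054 genes and given as a description that rests largely on the group differences, the pattern most like Cxcl13 was that of Birc2 (0.993), followed by Lat (0.991), Fyb (0.982) and Ifi30 (0.976). Cxcr5 was most like the B cell genes Fcrl1 (0.977) and Cd22 (0.971), then Ly6d (0.967) and Swap70 (0.963). Ccr7 was most like Ptx3 (0.997), Ikbke (0.989), Bcl11b (0.982) and Pdcd1 (0.979). Its value was the floor on all outside-lesion and wild-type arrays, so these correlations follow only the ATLO values and their step above the floor. For Cxcl12 the closest were C3ar1 (0.988), Tmem176b (0.980), Sec61a1 (0.976) and C1qc (0.976), and for Cxcr4 they were Kpnb1 (0.981), Pstpip1 (0.969), Itgb7 (0.964) and Cyfip2 (0.961).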

How the data were processed

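Adventitia RNA of 11 mouse samples was hybridised to Affymetrix arrays, and the authors deposited linear signal intensities per probe set. Per the submitters' processing notes GCOS 1.4 was used. The deposited intensities of each array had the same mean after trimming 2% at each end (500.2 to 500.3), so they had been scaled before deposit, but no source used here records how. Median signals were 152.3 to 191.7, and the number of arrays limits the precision. Signals below a floor of 35.1 (the 20th percentile) were raised to it and taken to log2. Tests were limited to probe sets that exceeded an array's own 40th percentile on 3 or more arrays (14988 of 22626, after removing 64 controls). limma 3.58.1 (R 4.3.3) estimated the 3 group means from the 11 arrays together, letting the prior variance follow signal, and Benjamini-Hochberg adjustment ran over the whole tested table. Errors of log2 changes are SE and those of signals SD. A gene in a list was represented by its probe set with the highest mean. The rule for named genes took all member probe sets, the 4 largest called rises and 2 largest called falls of each pathway list, and the 4 genes most like each member, and other genes were singled out after their values were seen. Members and lists were chosen with earlier results of these data known, and Ccl19 left 5 rather than 6 genes for the marker comparison. The fit was tested on simulated data. Alternatives were other normalizations, floors, filters and variance priors, array weights, the actin ratio, the replicate number as a block, each array left out and, added after the values were seen, the dimmer probe sets of Cxcl13 and Cxcl12. Correlations of deviations were -0.178 to 0.273 for samples with the same replicate number, against -0.198 to 0.238 for unlike numbers. For ATLO and outside-lesion samples of the same number they were all positive (0.142, 0.0749, 0.0397 and 0.153). Unlike numbers of these groups gave -0.198 to 0.152. Whether equal numbers mark pairs was not settled, and the main fit treated arrays as unpaired.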

Additional observations from a re-analysis of the deposited data

Results flagged for a closer look

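Of 24 sets of 4 arrays examined, 2 had an array far from the rest of its group by Dixon's test, where chance gives about 1 in 20. Cxcl13 relative to fibroblast markers was 0.51 on ATLO replicate 2, where the other ATLO arrays lay between -0.56 and -0.46. Cxcr5 relative to B cell markers was -2.08 on ATLO replicate 3, where the others lay between -1.77 and -1.73. These 2 arrays had the lowest and the highest actin 3' to 5' ratio of the ATLO group, 1.71 and 8.14, and the part of that ratio in the values was not tested.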

How the results depend on the processing

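The count of member probe sets called was 7 in ATLO against outside-lesion adventitia under all alternatives except a filter at the 60th percentile, which tested and called 5, and the actin ratio as a covariate, which called 6. Against wild type it was 5 to 7, and between outside-lesion and wild type 0 throughout. With the replicate number as a block the counts were 7, 7 and 0, and the block changed no call of a member. Without any 1 array the counts were 7, 6 to 7 and 0. Among called values 1 changed direction, Cxcl12 relative to fibroblast markers in ATLO against outside-lesion adventitia, which was -0.26 with the dimmer probe set. That alternative was chosen after seeing the data, and with the dimmer Cxcl13 probe set Cxcr5 minus Cxcl13 against wild type was 0.12 in place of -0.45, neither called. Cxcr5 in outside-lesion against wild type was 0.31 with the actin covariate and -0.59 to 0.16 when arrays were left out, and the brighter Cxcl12 probe set was -0.37 to 0.020 when arrays were left out. Among the comparisons with marker lists, Cxcl13 in outside-lesion against wild type was 0.17 under quantile normalization and -0.41 to 0.26 when arrays were left out, Cxcr5 was -0.39 to 0.19, and Cxcr4 in ATLO against wild type was -0.66 to 0.30. The Cxcr5 and Ccr7 marker comparisons are limited by dim Cxcr5 signals and by Ccr7 values at the floor outside ATLO. Cxcl13 relative to fibroblast markers kept its direction in ATLO against outside-lesion adventitia under quantile normalization (1.28) but not its call (exact adjusted p = 0.107). When single arrays were left out, the marker comparisons of the brighter ligand probe sets often lost their call (highest exact adjusted p = 0.143 against outside-lesion and 0.125 against wild type), and their values stayed on the same side of 0. These tests had fewer splits to draw on.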
